A study of Mus musculus with 7 samples.

Results

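The 38 genes described here encode the enzymes, carriers and regulator of fatty acid oxidation and ketogenesis in mouse liver. They were chosen by symbol, from PPAR alpha through mitochondrial and peroxisomal beta-oxidation to ketone body formation, and all 38 were among the 24421 gene symbols in the count table. The study measured poly(A) RNA of whole liver from 7 C57BL/6 mice aged 36 weeks. The 4 libraries labelled knockout came from Prkciflox/floxAlbCre mice, which carry a Cre recombinase driven by the albumin promoter, active in hepatocytes and also, since it is on in their shared precursors, able to act in bile duct cells. The 3 libraries labelled control came from Prkciflox/flox mice, which carry the same floxed Prkci alleles without Cre. All 7 mice had received 25 mg/kg of diethylnitrosamine (DEN), a liver carcinogen, into the peritoneum at 2 weeks of age, and were fed a 60% fat diet, begun at 4 weeks and kept up for 32 weeks. Tumour content of the sampled tissue and kinship between the mice are not stated in the labels.

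Hepatocytes burn fatty acids in mitochondria and, for very long and branched chains, in peroxisomes. Acyl groups are activated to acyl-CoA, carried into the mitochondrion as acylcarnitines, and shortened by repeated rounds of dehydrogenation, hydration, a second dehydrogenation and thiolysis. The acetyl-CoA produced can be exported as ketone bodies, which the fasting liver supplies to other organs. PPAR alpha, encoded by Ppara, is the fatty acid sensing nuclear receptor that raises transcription of many of these enzymes together with its partner RXR, through direct repeats of the hexamer AGGTCA with 1 base between them.

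The sequences shown first are those that bear on how the results can be read. Acaa1a and Acaa1b, the peroxisomal thiolases, lie on chromosome 9 and had coding sequences of 1275 bases each that were 96.5% identical, with a longest identical run of 327 bases. Reads of 75 bases from that run match both genes equally, so the split between them depends on the windows where they differ. Coding bases 244 to 318 hold 11 differences, the most of any window of 75 bases, which are in capitals here (GENCODE M21 transcripts, 5′ to 3′):
Acaa1b: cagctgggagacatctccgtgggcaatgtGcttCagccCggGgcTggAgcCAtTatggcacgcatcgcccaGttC
Acaa1a: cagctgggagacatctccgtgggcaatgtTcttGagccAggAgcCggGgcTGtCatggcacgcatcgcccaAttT

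The acyl-CoA thioesterases Acot1, which is cytosolic, and Acot2, which is mitochondrial, lie near each other on chromosome 12 and were 95.2% identical over 1239 aligned coding bases, with a longest identical run of 273 bases. Their window with the most differences held 14 of them, again in capitals (coding bases 812 to 886 of Acot1 and 935 to 1009 of Acot2):
Acot1: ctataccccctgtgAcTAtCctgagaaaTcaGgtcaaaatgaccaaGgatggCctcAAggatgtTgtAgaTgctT
Acot2: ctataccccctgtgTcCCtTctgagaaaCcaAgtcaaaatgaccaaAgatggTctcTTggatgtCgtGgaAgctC

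Of all windows of 75 bases in annotated transcripts, 32.3% of those of Acaa1b and 12.6% of those of Acaa1a also occurred in a transcript of another gene. For Acot1, Acot2, Acot3 and Acot4 the shares were 15.0%, 21.2%, 18.1% and 9.90%. The highest share was that of Cpt1b, the muscle isoform of carnitine palmitoyltransferase 1, with 77.1% of its windows also in the annotated transcript Gm44502. No source used here says how such reads were counted, and the levels of these genes taken singly are uncertain.

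Promoter windows from 250 bases before to 50 bases after the start were matched for 33 of the 38 genes in the RefSeq table on GRCm38.p6. A relaxed form of the PPAR alpha repeat, 2 copies of AGGNCA with 1 base between them, was searched on both strands. It was in 0 of the 33, against 0.376% of 10385 genes tested for expression that had a window. A share that low leaves 0 among 33 uninformative, and sequence outside the window was not searched. The hexamer AGGTCA alone, on either strand, which every exact repeat also contains, was in 6 of the 33 (18.2%), against 15.7% of the same genes. Among the other genes of the pathway described further down, 1 of 48 held the relaxed repeat, namely Fabp1, the fatty acid binding protein of liver cytosol, where it began 67 bases before the start. The 250 bases before the start are shown for 4 genes, with AGGTCA on either strand and the Fabp1 repeat in capitals. They belong to the thiolase pair, to Cpt1a, the liver isoform of carnitine palmitoyltransferase 1, and to Fabp1:
Acaa1b (chr9:119157094-119157343, minus strand): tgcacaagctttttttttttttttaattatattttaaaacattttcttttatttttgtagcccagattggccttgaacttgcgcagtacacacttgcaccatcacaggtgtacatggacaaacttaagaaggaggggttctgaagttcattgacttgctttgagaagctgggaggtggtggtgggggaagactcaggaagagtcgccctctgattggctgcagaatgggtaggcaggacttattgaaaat
Acaa1a (chr9:119341044-119341293, plus strand): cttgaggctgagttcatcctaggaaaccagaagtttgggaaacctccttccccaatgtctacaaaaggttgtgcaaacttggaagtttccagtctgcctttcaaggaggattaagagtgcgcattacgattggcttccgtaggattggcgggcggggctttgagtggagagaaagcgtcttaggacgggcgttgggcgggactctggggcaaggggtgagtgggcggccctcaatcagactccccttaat
Cpt1a (chr19:3323051-3323300, plus strand): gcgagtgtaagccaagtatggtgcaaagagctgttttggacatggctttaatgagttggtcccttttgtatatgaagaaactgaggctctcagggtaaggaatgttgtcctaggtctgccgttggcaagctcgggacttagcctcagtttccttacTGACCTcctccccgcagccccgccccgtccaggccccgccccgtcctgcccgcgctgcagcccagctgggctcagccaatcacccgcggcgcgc
Fabp1 (chr6:71199629-71199878, plus strand): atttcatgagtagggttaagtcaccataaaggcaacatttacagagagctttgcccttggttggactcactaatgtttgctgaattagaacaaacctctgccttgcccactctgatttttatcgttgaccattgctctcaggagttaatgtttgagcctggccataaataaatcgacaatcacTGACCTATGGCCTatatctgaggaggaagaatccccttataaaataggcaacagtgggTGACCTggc

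Prkci, the targeted gene, was at 30.0, 30.7, 28.2 and 28.7 CPM in the libraries labelled knockout, against 23.3, 20.4 and 27.7 CPM in those labelled control. CPM are gene-assigned read counts divided by library size (counts per 1 M reads) and scaled by TMM factors, which correct for a few abundant genes taking reads from the rest. The log2 fold change was 0.30 (SE 0.12, edgeR adjusted p = 0.214). The libraries labelled knockout were higher without overlap, which held for 8.62% of all genes tested. The count covers the whole gene, including parts outside any deleted exon, so it does not check the labels, and each direction below rests on the labels alone. Depth ran from 28695455 to 49203615 gene-assigned reads in the libraries labelled knockout and from 23807580 to 26556486 in those labelled control. The 6 hepatocyte markers took 5.69% to 7.16% and 6.05% to 8.35% of the reads in the same order, and none of them was at 0. Summed as CPM, they were at 53250 to 65840 and 70110 to 100600 CPM, lower in the libraries labelled knockout without overlap. Most of that sum was Alb, at 37344 to 53969 CPM against 82617, 51545 and 58110 CPM in controls 1 to 3, which overlapped. Apoa1 was lower without overlap (7.63% of all genes), while Tat, Hnf4a, Ttr and Cps1 overlapped. Ttr and Cps1 had log2 fold changes of 0.02 and 0.12. None of the 6 passed the test described further down. Controls 1 and 2 stood apart from the other 5 libraries in the summed share of 22 acute phase genes. These took 3.53% to 4.60% of the reads of the libraries labelled knockout, against 14.7%, 15.0% and 3.58% in controls 1, 2 and 3. Not all 22 followed it, as the libraries labelled knockout lay below every control for Saa3 and above controls 1 and 2 for Hamp. A list of 6 stellate cell and fibroblast genes summed to 119 to 276 CPM and 41.5 to 91.1 CPM in the same order, without overlap, though 0 of the 6 passed the test described next. That sum was carried by the collagens Col1a1, Col1a2 and Col3a1, while the stellate cell gene Lrat was at 6.05 to 8.87 CPM in the libraries labelled knockout, against 10.6 to 18.2 CPM in the controls. The part of these cells in the results was not tested. Results are therefore given with each control separately.

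With all 7 libraries, 1 of the 38 genes rose, 0 fell and 36 did not pass, while Cpt1b was too low to be tested. The test was edgeR's quasi-likelihood test with Benjamini-Hochberg adjustment over 13638 genes and a threshold of 0.05, at which 1.26% of all genes rose and 0.953% fell (2.21% in either direction). The gene that rose was Acad10, an acyl-CoA dehydrogenase family member. Of the 37 tested genes, 35 had a log2 fold change above 0, against 48.9% of all genes, and their median was 0.29, against -0.01 over all genes. Without adjustment 4 of the 37 had a p under 0.05, against 18.0% of all genes, and these were Acad10, Acaa1a and Acads, which were higher, and Ppara, which was lower. In whole liver, fewer cells of a type and less RNA per cell cannot be told apart.

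Control 1 lay below all 4 libraries labelled knockout for 30 of the 37 genes and within their range for 6 (27.0% and 45.1% of all genes), and control 2 for 34 and 3 (29.9% and 41.1%). For 30 of the 37 genes controls 1 and 2 both lay below all 4 libraries labelled knockout, which held for 17.8% of all genes tested. Control 3 instead lay above all 4 of those libraries for 21 of the 37, against a background of 25.6%, and below all 4 for 1, Acad10 (26.3% of all genes), and within their range for 15 (48.1%). It exceeded both other controls in 36 of 37 genes, against 37.8% of all genes, the exception being Etfb, a subunit of the electron transfer flavoprotein. The median log2 ratio of the mean of the libraries labelled knockout was 0.59 over control 1, 0.75 over control 2 and -0.23 over control 3. Over all genes tested the same medians were 0.01, 0.01 and 0.01.

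**Figure D1:**
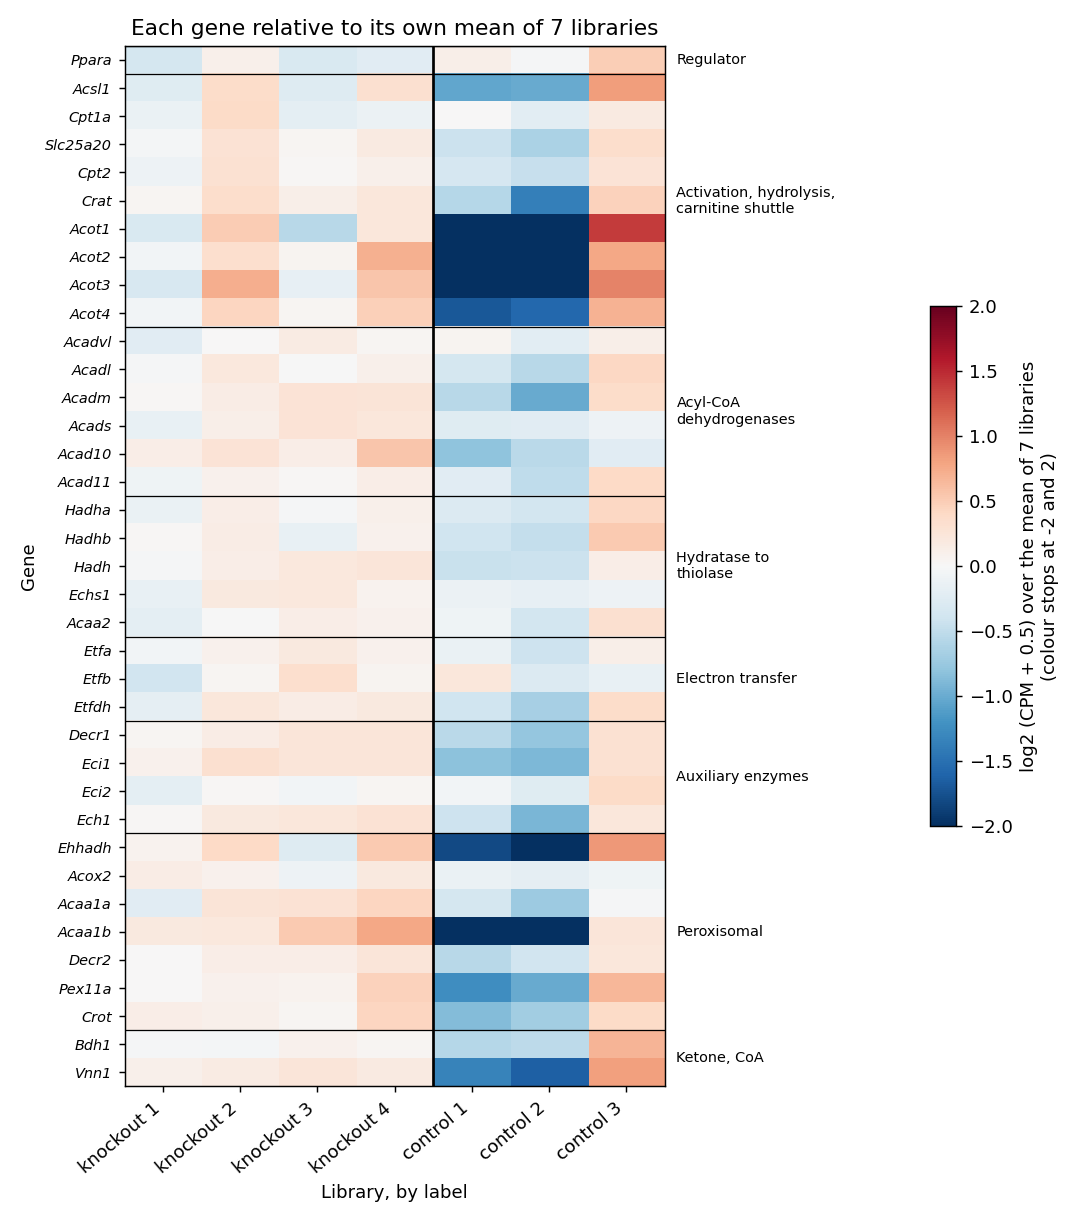
Heat map of the 37 tested genes (rows, by role) in 7 libraries (columns, labelled knockout left of the line and labelled control right of it), coloured by log2 of CPM + 0.5 over the gene's own mean of 7 libraries. Controls 1 and 2 are pale to dark blue in most rows, while control 3 is red in most and is the highest of the 7 libraries in 21 rows.

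Each library can be summarised by the median log2 ratio of the 37 genes to the mean of the 3 controls. It was 0.11, 0.38, 0.31 and 0.41 in the libraries labelled knockout 1 to 4, and -0.26, -0.45 and 0.52 in controls 1 to 3. The range of the controls thus enclosed that of the libraries labelled knockout. Together the 37 genes took 1.36%, 1.57%, 1.45% and 1.67% of the reads in the libraries labelled knockout, against 0.740%, 0.693% and 1.81% in controls 1 to 3. The acute phase share was highest in controls 1 and 2, the libraries where the share of the 37 genes was lowest. Both are shares of the same read total, so they are not independent of each other. With TMM scaling the 37 genes summed to 12480, 14750, 13580 and 15510 CPM in the libraries labelled knockout. Controls 1 to 3 were at 8910, 8098 and 17140 CPM, so controls 1 and 2 stayed below every library labelled knockout. A list of 3 neutrophil genes was at 4.10 to 7.13 CPM in the libraries labelled knockout, against 238, 53.0 and 7.05 CPM in controls 1 to 3. None of the genes of either list was at 0 in every library, and 2 of 22 acute phase genes (Saa3 and Itih4) and 0 of 3 neutrophil genes passed the test, both lower. The part of these cells and of the acute phase in the levels of the oxidation genes was not tested.

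**Figure D2:**
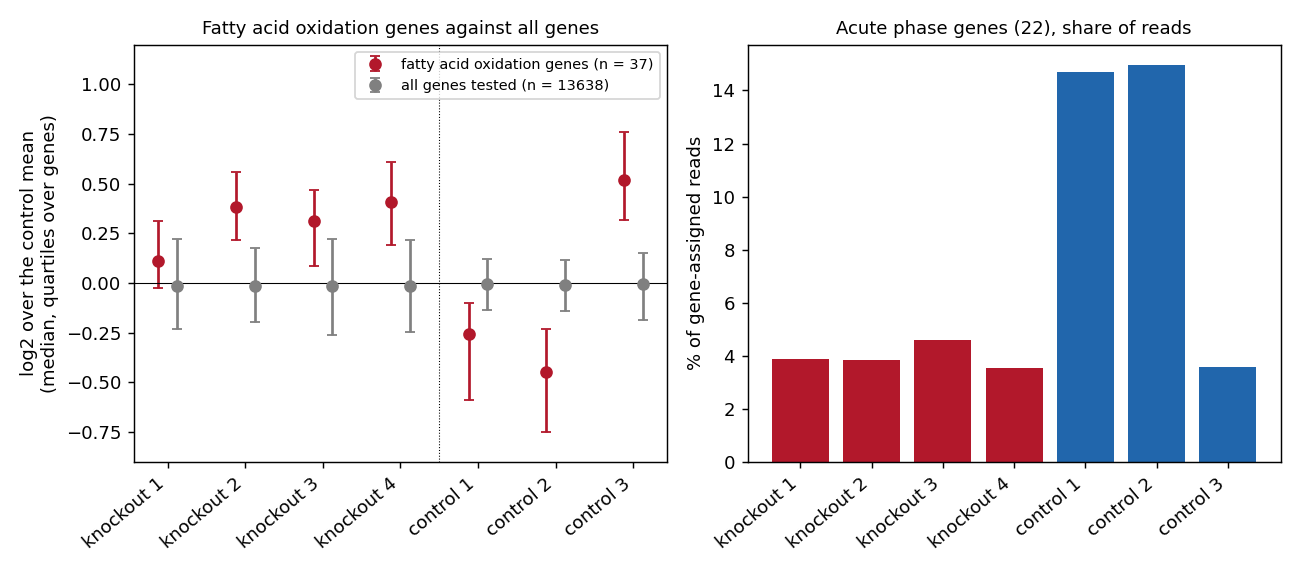
Left, median (point) and quartiles (bars) over genes of the log2 ratio to the mean of the 3 controls in each library, for the 37 tested fatty acid oxidation genes and for all 13638 genes tested. Right, share of gene-assigned reads in 22 acute phase genes, at most 4.60% in the libraries labelled knockout and 14.7%, 15.0% and 3.58% in controls 1 to 3.

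Among the libraries labelled knockout, number 1 had the lowest level of the 4 for 28 of 37 genes (75.7%, against 25.6% of all genes tested) and the highest for 0. That library also had the highest summed level of 4 liver tumour genes (Afp, Gpc3, H19 and Golm1), at 272 CPM, against 18.3 to 36.7 CPM in the other libraries labelled knockout and 17.1 to 21.2 CPM in the controls. In knockout 1 most of that sum was H19, at 219 CPM, with Afp, Gpc3 and Golm1 at 16.1, 5.31 and 31.3 CPM. None of the 4 tumour genes was at 0 in every library or passed the test, and their part in the lower levels was not tested. The coefficient of variation had a median over the 37 genes of 11.0% among the libraries labelled knockout and 38.3% among the controls. Over all genes tested it was 13.8% and 15.9%.

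The libraries labelled knockout had less Ppara RNA on average, at 295, 403, 303 and 319 CPM, against 406, 371 and 529 CPM in controls 1 to 3. Knockout 2 lay between the controls, so the groups overlapped, and control 3 was the highest. The log2 fold change was -0.40 (SE 0.17, edgeR adjusted p = 0.244), which did not pass. Its partners and relatives in the wider pathway did not share a direction, and none passed. Rxra was at 432, 521, 438 and 393 CPM in the libraries labelled knockout, against 602, 597 and 546 CPM in the controls, lower without overlap (7.63% of all genes, edgeR adjusted p = 0.179). Rxrb was at 30.0, 31.1, 35.4 and 30.5 CPM against 29.3, 25.9 and 28.1 CPM, higher without overlap (8.62% of all genes, edgeR adjusted p = 0.369). The relative Pparg had a log2 fold change of 1.07 (SE 0.38) with overlap, and Ppard one of -0.29 (SE 0.23).

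Genes of fatty acid activation, hydrolysis and transport included the steepest differences between controls. Acot3, a peroxisomal thioesterase, was at 14.6, 30.8, 16.4 and 27.1 CPM in the libraries labelled knockout and at 1.06, 1.36 and 37.1 CPM in controls 1 to 3. Acot1 was at 26.8, 47.6, 22.5 and 39.0 CPM in the libraries labelled knockout and at 4.81, 3.56 and 88.1 CPM in the controls. For both, controls 1 and 2 lay far below and control 3 above every library labelled knockout. Acot2 was at 16.1, 21.4, 17.4 and 27.9 CPM against 2.78, 3.00 and 29.2 CPM, and Acot4, the peroxisomal succinyl-CoA thioesterase, was at 37.4, 52.9, 40.2 and 54.3 CPM against 11.7, 12.8 and 63.5 CPM. Summed, which removes the uncertain split of the pair, Acot1 and Acot2 were at 39.9 to 69.0 CPM in the libraries labelled knockout, against 7.59, 6.56 and 117 CPM in the controls. None of the 4 thioesterases passed with all libraries (edgeR adjusted p from 0.676 to 0.986).

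Acsl1, the long-chain acyl-CoA synthetase that activates fatty acids, was at 1157, 1763, 1135 and 1701 CPM in the libraries labelled knockout, against 661, 679 and 2443 CPM in controls 1 to 3. Its order was again controls 1 and 2, then the libraries labelled knockout, then control 3 (log2 fold change 0.19, SE 0.49, edgeR adjusted p = 0.884). Cpt1a, the malonyl-CoA regulated entry step into the mitochondrion, did not share that order. It was at 661, 939, 631 and 664 CPM in the libraries labelled knockout, against 724, 622 and 815 CPM in controls 1 to 3, and the groups overlapped. For Cpt1a the log2 fold change, 0.01 (SE 0.18), did not pass (edgeR adjusted p = 0.991). The carnitine carriers and transferases Slc25a20, Cpt2 and Crat had log2 fold changes of 0.29, 0.23 and 0.50, none of which passed, with control 3 above every library labelled knockout for Slc25a20 and Crat but not Cpt2. Cpt1b had 21, 9, 11 and 13 reads in the libraries labelled knockout, against 4, 0 and 7 reads in the controls, where the 0 allows up to 3 reads, and 3 reads equal at most 0.126 CPM in any library before TMM scaling. Markers of skeletal muscle, where this isoform is abundant, summed to 0.665 to 1.41 CPM and 0.997 to 1.67 CPM in the same order.

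**Figure D3:**
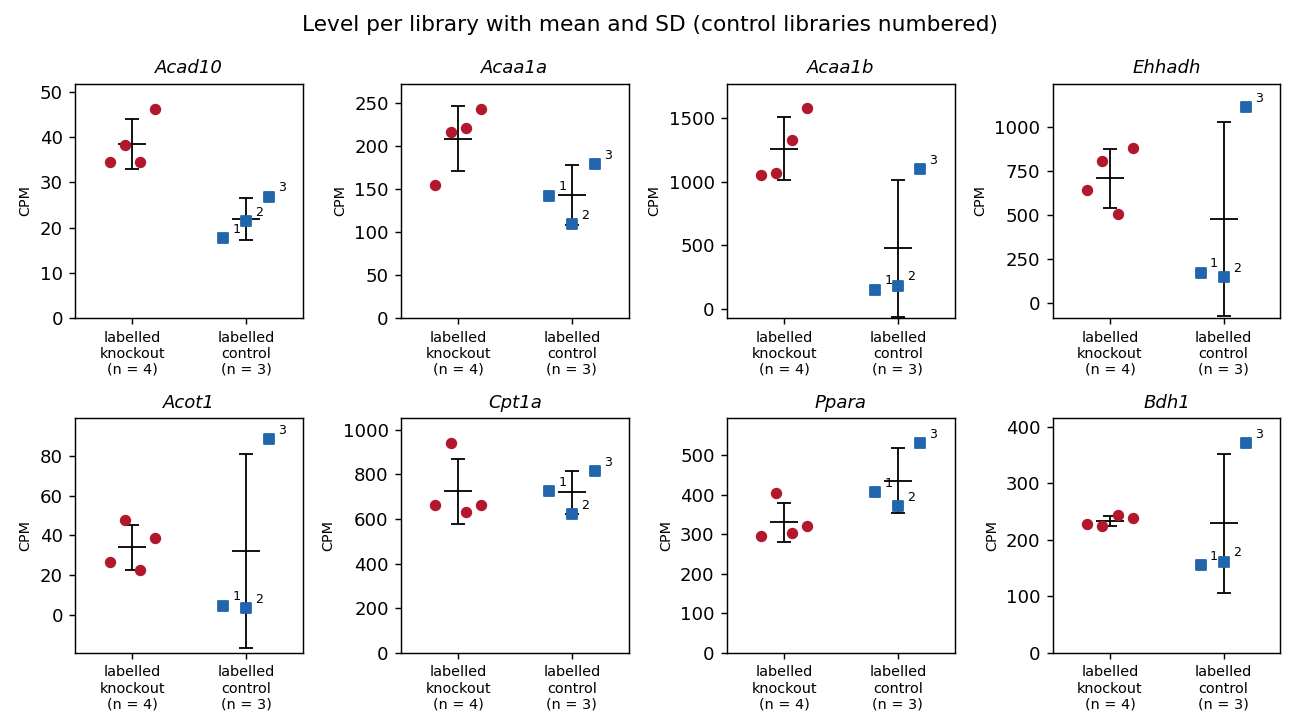
CPM of 8 genes in each library (points), with the mean and SD of the 4 libraries labelled knockout and of the 3 labelled control, which are numbered. Acad10 is the only one of the 8 whose groups do not overlap, and control 3 lies above controls 1 and 2 in all 8.

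The acyl-CoA dehydrogenases carry out the first step of each round, and 1 of the 6 passed. Acad10 was at 34.6, 38.2, 34.6 and 46.3 CPM in the libraries labelled knockout, a mean of 38.4 ± 5.51 (SD, n = 4), against 17.7, 21.3 and 26.8 CPM in controls 1 to 3, a mean of 21.9 ± 4.60 (SD, n = 3). Every library labelled knockout exceeded every control, which held for 8.62% of all genes tested (the reverse for 7.63%), and Acad10 was the only 1 of the 37 genes without overlap. The log2 fold change was 0.81 (SE 0.16, edgeR adjusted p = 0.0365), and it was 1.10, 0.83 and 0.51 over controls 1, 2 and 3 taken singly. With single libraries removed in turn, Acad10 passed in 2 of 7 fits, those lacking control 3 or knockout 2, with edgeR adjusted p-values from 0.00408 to 0.157. In limma-voom the adjusted p was 0.0678. Acad10 lies on the minus strand of chromosome 5 from 121621026 to 121660514 (mm10), next to Acad12, and 11.4% of its windows of 75 bases also occur in Acad12 transcripts.

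Of the other dehydrogenases, Acads, which acts on short chains, was at 136, 162, 182 and 175 CPM in the libraries labelled knockout, against 127, 129 and 140 CPM in the controls. Only knockout 1 fell below a control, and the log2 fold change of 0.31 (SE 0.12) did not pass (edgeR adjusted p = 0.211). Acadm, the medium-chain enzyme, was at 531 to 630 CPM in the libraries labelled knockout, against 354, 260 and 677 CPM in controls 1 to 3. Acadl, the long-chain enzyme, was at 263 to 308 CPM against 209, 182 and 357 CPM. Both had control 3 at the top and controls 1 and 2 at the bottom. Acadvl, the very long-chain enzyme of the inner membrane, was at 364 to 477 CPM against 445, 370 and 463 CPM, with a log2 fold change of 0.00 (SE 0.14). Acad11, the most abundant of these genes by CPM, was at 524, 590, 568 and 609 CPM in the libraries labelled knockout, against 473, 391 and 735 CPM (log2 fold change 0.10, SE 0.20, edgeR adjusted p = 0.837).

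Hydration, the second dehydrogenation and thiolysis complete a round, and none of the 5 genes of these steps passed. Hadh, the short-chain hydroxyacyl-CoA dehydrogenase, was at 393, 439, 463 and 476 CPM in the libraries labelled knockout, against 294, 298 and 438 CPM in controls 1 to 3. Control 3 lay just below knockout 2, and the log2 fold change was 0.37 (SE 0.17, edgeR adjusted p = 0.287). Echs1, the short-chain hydratase, was at 194, 247, 249 and 227 CPM, against 199, 193 and 202 CPM, with control 1 and control 3 above knockout 1 (log2 fold change 0.21, SE 0.12, edgeR adjusted p = 0.387). Acaa2, the mitochondrial thiolase, was at 638, 729, 799 and 778 CPM, against 686, 567 and 915 CPM in the controls (log2 fold change 0.03, SE 0.18). Per kilobase of annotated exon Acaa2 had the highest mean level of the 38 genes over the 7 libraries, 482 CPM per kb, followed by Acaa1b with 471, and Cpt1b the lowest with 0.0748. Hadha and Hadhb, the subunits of the trifunctional protein, gave log2 fold changes of 0.06 for Hadha (SE 0.19) and 0.08 for Hadhb (SE 0.23). In both, control 3, at 591 and 218 CPM, lay above all libraries labelled knockout, at 404 to 488 and 137 to 169 CPM, and controls 1 and 2 below them.

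Electrons leave the dehydrogenases through the electron transfer flavoprotein and its ubiquinone oxidoreductase. Etfdh, which encodes the oxidoreductase, was at 361, 480, 455 and 469 CPM in the libraries labelled knockout, against 311, 260 and 531 CPM in controls 1 to 3 (log2 fold change 0.26, SE 0.23, edgeR adjusted p = 0.609). The subunit genes Etfa and Etfb had log2 fold changes of 0.21 and 0.08. Etfb was highest in knockout 3, at 285 CPM, and lowest in knockout 1, at 173 CPM. It was at 263, 187 and 204 CPM in controls 1 to 3, so control 3 lay below control 1. In the other 36 tested genes control 3 exceeded controls 1 and 2. For Etfb 39.6% of the windows of 75 bases also occur in the annotated transcript Gm45233.

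Auxiliary enzymes prepare the double bonds of unsaturated fatty acids for oxidation, and none of their 4 genes passed. Eci1, the mitochondrial enoyl-CoA isomerase, was at 135, 159, 151 and 151 CPM in the libraries labelled knockout, against 71.8, 68.1 and 158 CPM in controls 1 to 3. Decr1, the dienoyl-CoA reductase, was at 286.5, 309, 329 and 329 CPM against 192, 163 and 344 CPM, and Ech1, the dienoyl-CoA isomerase, at 298, 335, 343 and 359 CPM against 221, 155 and 345 CPM. For these 3 genes controls 1 and 2 lay below every library labelled knockout, and control 3 lay within their range for Eci1 and Ech1 and above it for Decr1. Their log2 fold changes were 0.59, 0.43 and 0.47, with edgeR adjusted p-values from 0.329 to 0.375. Eci2 was at 201 to 238 CPM against 222, 195 and 300 CPM, with a log2 fold change of -0.10 (SE 0.15).

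In peroxisomes, the 7 genes all had log2 fold changes above 0 and none passed. Acaa1b was at 1057, 1068, 1332 and 1582 CPM in the libraries labelled knockout, against 150, 181 and 1098 CPM in controls 1 to 3. Control 3 fell inside the range of the libraries labelled knockout, unlike its place for the thioesterases, and the log2 fold change was 1.40 (SE 0.76, edgeR adjusted p = 0.397). Acaa1a was at 155, 216, 221 and 244 CPM against 142, 109 and 179 CPM, with only knockout 1 below control 3. For Acaa1a the log2 fold change, 0.54 (SE 0.20), did not pass either (edgeR adjusted p = 0.181). The sum of the pair was 1210 to 1830 CPM in the libraries labelled knockout, against 293, 291 and 1280 CPM in the controls. The ratio of Acaa1a to Acaa1b was 0.147 to 0.203 in the libraries labelled knockout and 0.163 in control 3, whereas it was 0.949 and 0.603 in controls 1 and 2.

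Ehhadh, the bifunctional hydratase and dehydrogenase of peroxisomes, was at 642, 806, 508 and 880 CPM in the libraries labelled knockout, against 174, 148 and 1113 CPM in controls 1 to 3. Its wide spread between controls gave a log2 fold change of 0.57 with an SE of 0.77 (edgeR adjusted p = 0.761). Crot, which makes acylcarnitines that leave the peroxisome, had the highest CPM of the peroxisomal genes, at 1593, 1562, 1490 and 1958 CPM, against 796, 900 and 1898 CPM. Pex11a, which acts in peroxisome division, was at 56.2, 59.6, 58.5 and 77.2 CPM against 23.4, 27.6 and 88.9 CPM. In both, controls 1 and 2 were lowest, and control 3 was above all libraries labelled knockout for Pex11a but not for Crot. Acox2, the branched-chain oxidase of bile acid side chains, and Decr2, a peroxisomal reductase, had smaller differences. Acox2 was at 276, 265, 231 and 285 CPM against 227, 219 and 235 CPM, with only knockout 3 below a control (log2 fold change 0.22, SE 0.12, edgeR adjusted p = 0.361). Decr2 was at 256, 281, 280 and 303 CPM against 174, 195 and 298 CPM (log2 fold change 0.33, SE 0.18, edgeR adjusted p = 0.371).

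Bdh1, which interconverts the ketone bodies acetoacetate and hydroxybutyrate, was nearly level among the libraries labelled knockout, at 228, 225, 245 and 238 CPM. Controls 1 to 3 had 156, 161 and 371 CPM, and the group means were close (log2 fold change 0.03, SE 0.29, edgeR adjusted p = 0.974). Vnn1, the pantetheinase of coenzyme A breakdown, was as level in the libraries labelled knockout, at 185, 193, 204 and 195 CPM, against 68.2, 55.3 and 306 CPM in the controls. Both genes lay between controls 1 and 2 on one side and control 3 on the other in every library labelled knockout.

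**Figure D4:**
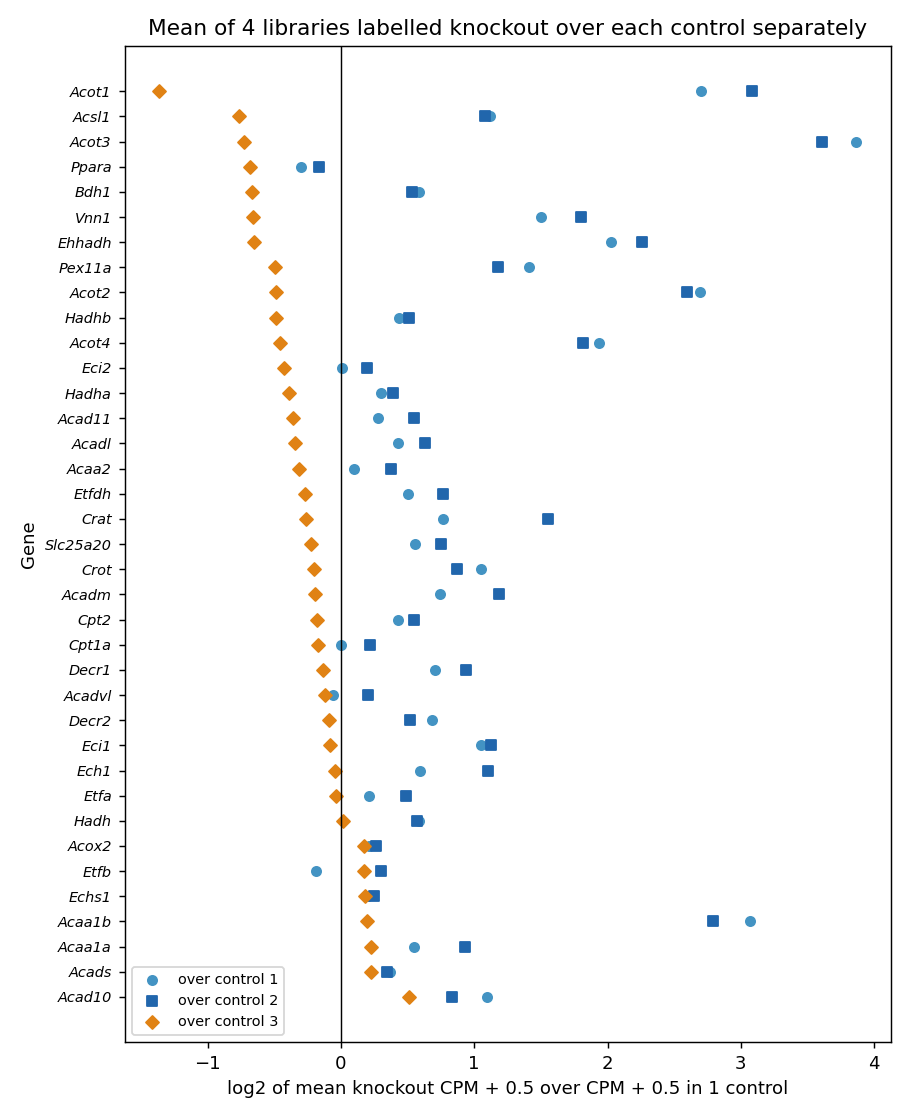
For each of the 37 tested genes (rows), log2 of the mean CPM + 0.5 of the 4 libraries labelled knockout over the CPM + 0.5 of control 1, control 2 or control 3. Ratios to control 3 lie below 0 for 29 genes, while those to controls 1 and 2 lie below 0 for 4 and 1.

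Left out one at a time, the libraries changed these counts unequally. Without control 3, 25 of the 38 genes rose and 0 fell (edgeR's quasi-likelihood test, adjusted p under 0.05), where 4.69% of all 14056 genes tested rose and 4.63% fell (9.32% in either direction). They were led by Acaa1b (log2 fold change 2.92, edgeR adjusted p = 5.09e-05) and Vnn1 (1.65, adjusted p = 6.10e-05), and the thioesterases had log2 fold changes from 1.91 for Acot4 to 4.18 for Acot3. At an unadjusted p under 0.05, 29 of the 38 were higher, against 23.8% of all genes in either direction. The 13 that did not pass were Ppara, Cpt1a, Cpt1b, Acadvl, Acads, Acad11, Hadha, Echs1, Acaa2, Etfa, Etfb, Eci2 and Acox2. With control 3 as the lone control, 0 of the 38 passed and 29 had a log2 fold change below 0, where 52.1% of all genes lay above 0, with a median of -0.22, against 0.02 over all genes. That fit assumes that control 3 varies like the libraries labelled knockout, and 11 of the 38 had an unadjusted p under 0.05 in it, 10 of them lower (10.9% of all genes in either direction), while 0.0612% of all genes passed with adjustment (0.034% higher and 0.0272% lower). Without control 1 or without control 2, 0 of the 38 passed in edgeR's quasi-likelihood test, with 2 at an unadjusted p under 0.05 in each case and medians of 0.19 and 0.15. Of all genes 0.255% and 0.221% passed in those fits, and 13.4% and 12.1% had an unadjusted p under 0.05.

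Further genes of the pathway were taken from a list of 69 in the table, of which 66 were tested. Of these 2 rose, 0 fell and 64 did not pass, where 1.26% of all genes rose and 0.953% fell (2.21% in either direction). Their median log2 fold change was 0.15, against -0.01 over all genes. Acad12, the neighbour and relative of Acad10, rose to 19.8, 12.3, 13.6 and 15.1 CPM in the libraries labelled knockout, against 4.55, 5.95 and 6.12 CPM in the controls (log2 fold change 1.45, SE 0.20, edgeR adjusted p = 0.0127). Acot13, a small mitochondrial thioesterase, rose to 46.0, 41.7, 49.5 and 48.9 CPM, against 32.3, 30.3 and 33.5 CPM (log2 fold change 0.54, SE 0.10, edgeR adjusted p = 0.0283). In both genes all 3 controls lay close together. They also lay below all libraries labelled knockout, which held for 8.62% of all genes tested. The acyl-CoA synthetase Acsl3 was lower, at 22.1, 17.0, 19.7 and 20.1 CPM against 32.8, 34.5 and 24.1 CPM, and Acad9, a complex I assembly factor of the dehydrogenase family, higher, at 52.3, 46.7, 46.6 and 48.9 CPM against 35.7, 40.7 and 37.7 CPM. Neither passed (edgeR adjusted p = 0.0580 and 0.0813). Acad12 lost its call without control 1 (edgeR adjusted p = 0.0600) and without control 2 (0.0563), and Acot13 lost it in 5 of the 7 fits without 1 library and in limma-voom (adjusted p = 0.0501).

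The sterol carrier protein gene Scp2 was at 2341, 3284, 2557 and 2194 CPM in the libraries labelled knockout, against 2298, 2477 and 2947 CPM in controls 1 to 3. The groups overlapped, with a log2 fold change of 0.01 (SE 0.20). Phyh, the hydroxylase of phytanic acid, was at 1943 to 2020 CPM against 1499, 1532 and 2034 CPM. The PPAR alpha responsive hormone gene Fgf21 was at 9.89, 6.68, 11.4 and 12.3 CPM against 2.94, 1.41 and 8.94 CPM (log2 fold change 1.17, SE 0.58, edgeR adjusted p = 0.351). Pdk4, the kinase that restrains pyruvate oxidation, was at 17.7, 13.2, 16.4 and 24.7 CPM against 9.26, 4.97 and 19.7 CPM (log2 fold change 0.66, SE 0.45, edgeR adjusted p = 0.506). Fabp1, whose promoter stretch is printed above and which was added for that reason, was at 1376, 1437, 2107 and 1515 CPM against 1023, 1067 and 2999 CPM. In Fgf21 and Pdk4 control 3 lay within the libraries labelled knockout, and in Fabp1 above them.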

How the data were processed

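The authors deposited raw counts of reads per gene symbol from strand-specific poly(A) libraries, read from a single end over 75 nt per the labels' protocols, with 0 columns left out. The submitters' processing notes name STAR, DESeq2 and mm10 without role or version, and no source used here gives the read counter or annotation. The 2 rows that name no gene (8.62% to 16.3% and 0.433% to 0.575% of reads) stayed out of library sizes and tests.

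The main test was edgeR 4.0.16 in R 4.3.3 (TMM, filterByExpr with a minimum count of 10, robust glmQLFit, two-sided quasi-likelihood F test of genotype, Benjamini-Hochberg adjustment). Standard errors were derived from it, as the absolute log2 fold change over the square root of the F statistic. Alternatives were DESeq2 1.42.0, limma-voom 3.58.1, other scalings, filters and thresholds, a replicate block, and libraries left out. The labels number the samples only, so p-values reflect the spread among these 7 samples. Counting intervals and floors cover counting error only. Replicates differed by more than counting noise (chi-square over its degrees of freedom was 38.8 or more). The steps were first tested on simulated counts.

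The genes and lists were chosen with earlier results of these data known. Named genes were the 12 of the 38 with the smallest p, the most abundant per role, Ppara, Cpt1a, Bdh1 and close paralogs, and of the other pathway genes the 4 with the smallest p, the 4 most abundant and 4 fixed ones, of which some are not reported here. Rxra, Rxrb, Pparg, Ppard, Lrat and Fabp1 were chosen after their values were seen. Likeness of patterns across libraries is not reported, since controls 1 and 2 lie apart. Loci, exon lengths and shared windows come from GENCODE M21 (GRCm38, as mm10), promoters from RefSeq, alignments from Biopython 1.88 and figures from matplotlib 3.10.9.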

Additional observations from a re-analysis of the deposited data

Results flagged for a closer look

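In 2 of 45 genes examined, 1 of the 4 libraries labelled knockout stood apart from the other 3 by a gap above Dixon's critical value for 4 samples, which chance exceeds in about 1 of 20 groups. Cpt1a was at 939 CPM in knockout 2, against 631 to 664 CPM in the other libraries labelled knockout. Pex11a was at 77.2 CPM in knockout 4, against 56.2 to 59.6 CPM.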

How the results depend on the processing

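The main limit is the split between control 3 and controls 1 and 2. Leaving out 1 library at a time gave 31 to 1310 calls over all genes (302 with all), 0 to 25 among the 38 genes (1 with all) and 0 to 17 in the wider pathway (2 with all), with medians of 0.15 to 0.64 and 0.045 to 0.28. Over all genes the lowest count came without control 2, and all 3 highest came without control 3. The counts over all genes were 77, 55 and 67 without knockout 1, 3 and 4 and 36 without control 1. With control 3 as the lone control edgeR gave 9, 0 and 0 calls (1603, 11 and 15 at an unadjusted p under 0.05), and the medians -0.22 and -0.11. There 27 of 37 genes changed sign, and among those named the log2 fold changes turned to -0.048 for Ech1, -0.081 for Eci1, -0.090 for Decr2, -0.13 for Decr1, -0.20 for Crot, -0.77 for Acsl1, -0.32 for Acaa2, -0.36 for Acad11, -0.27 for Etfdh, -0.67 for Bdh1, -0.17 for Cpt1a, -1.38 for Acot1, -0.50 for Acot2, -0.74 for Acot3, -0.46 for Acot4, -0.19 for Scp2, -0.037 for Phyh and -0.13 for Pdk4, and likewise to -0.65 for Ehhadh, -0.66 for Vnn1, -0.50 for Pex11a, -0.19 for Acadm and -0.27 for Crat. With 1 library left out, the sign varied for 12 of the 37, Acadvl, Acadl, Hadha, Hadhb, Etfb and Eci2 among them. The other 6 were Acsl1 (-0.12 to 1.10), Acaa2 (-0.12 to 0.23), Acad11 (-0.076 to 0.40), Bdh1 (-0.18 to 0.56), Cpt1a (-0.14 to 0.10), and Acot1 (-0.46 to 3.02), and in the wider pathway it varied for Scp2 (-0.12 to 0.12).

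Library size alone moved the median of all genes to 0.22 from near 0 and gave 498 calls (418 higher and 80 lower, against 172 and 130), 1 among the 38 and 5 in the pathway, with medians of 0.48 and 0.35. Plain CPM gave median ratios of 0.96 and 1.08 to controls 1 and 2. Upper-quartile factors turned Cpt1a to -0.0062 and Scp2 to -0.0020. DESeq2 gave 1136, 1 and 6 calls, limma-voom 137, 0 (8 at an unadjusted p under 0.05) and 1, and a threshold of 0.1 gave 767, 1 and 4. Same-numbered libraries did not deviate together (correlations -0.05, 0.08 and -0.14), and the replicate block in edgeR gave 74, 0 and 0 calls (1678, 3 and 12 at an unadjusted p under 0.05), so Acad10, Acad12 and Acot13 did not pass there (adjusted p = 0.118, 0.0791 and 0.133). The causes were not tested. RLE factors, both other filters and other pseudocounts kept every count within 1.5 times and every named sign.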
